A study of Rattus norvegicus with 25 samples.

Results

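Stable rat hepatoma lines carrying constitutively active Sar1B were compared with control lines, and the genes described here lie outside the COPII coat and lipid genes with which the study was concerned. McArdle-RH7777 is a rat hepatoma cell line that secretes apolipoprotein B lipoproteins. The comparison took the 8 arrays of the Sar1B:H79G lines (2 lines, 4 arrays each) and the 5 arrays of the control lines (2 arrays of line 1 and 3 of line 2), 13 of the 25 arrays and 4 of the 7 lines of the series. Sar1B:H79G is a human, FLAG-tagged Sar1B with a substitution that prevents completion of GTP hydrolysis. Every line is a picked clone that carries a tetracycline repressor vector, and the control lines hold the empty expression vector. All lines, controls included, were grown in blasticidin (10 µg/ml) and Zeocin (250 µg/ml), with tetracycline at 1 µg/ml for the last 24 h, so that antibiotics and inducer were shared by both groups. Arrays of a line are technical replicates. A clone therefore counted as 1 replicate. Each SE and p-value rests on a spread between clones that was pooled over the control, Sar1B:H79G and native Sar1B lines.

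Sar1 is the small GTPase that starts the assembly of COPII coats on the endoplasmic reticulum (ER). In its GTP-bound form it recruits the inner coat, and hydrolysis of GTP allows the coat to leave. Cells in which ER export or folding is disturbed are known to respond on several levels. The unfolded protein response raises chaperones through ATF6 and XBP1, and the integrated stress response acts through phosphorylated eIF2 and the transcription factor ATF4, which raises amino acid transporters, synthetic enzymes and tRNA synthetases.

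Control arrays carry a code prefix in their titles that differs from that of all other arrays, so array series and control status cannot be told apart. The 8 arrays of the lines with native Sar1B (2 lines, same series as Sar1B:H79G) are therefore given as side values. Signals of 5′ probe sets relative to 3′ probe sets differed with the series. The 5′ minus 3′ gap of the added polyadenylated control RNAs was −1.86 and −1.93 (log2) in the control lines, −1.16 and −1.14 in the Sar1B:H79G lines and −1.14 and −1.08 in the Sar1B lines, and that of β-actin was −0.81 and −0.94, −0.71 and −0.63, and −0.50 and −0.49. Their part in the results was not tested. Array medians lay between 8.10 and 8.16, and arrays of a line correlated with a median of 0.995 across probe sets. Hepatocyte markers were high in both groups, with a mean log2 signal of 12.4 to 12.9 over 6 markers in control and 12.2 to 12.3 in Sar1B:H79G arrays. Of these 6, 2 were called lower. Of 4 fetal hepatocyte or hepatoma markers, 1 lay above the median of all probe sets and 1 was called higher. Their means were 9.31 to 9.48 in control and 9.44 to 9.66 in Sar1B:H79G arrays. Means over 3 cholangiocyte markers were 8.20 to 8.53 and 8.30 to 8.58, without a call. Means over the endothelial (3), fibroblast or stellate (6) and immune (4) markers lay between 6.86 and 8.19 in both groups, near or below the array median, and 1 of these 13 markers passed the test. The files hold no detection calls, so that a low signal is not shown to be above background.

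The rat Sar1b probe set was not higher in the lines that carry human Sar1B, with means of 11.31 and 11.41 in the native Sar1B lines. Whether its probes read the human sequence was not checked. Its signals were 11.54, 11.50, 11.45, 11.37 and 11.34 in the control arrays and 11.09 to 11.37 (median 11.30) in the Sar1B:H79G arrays, and the groups overlapped. It therefore checks nothing about the lines. Sar1a, the paralog, was at 11.41, 11.52, 11.29, 11.29 and 11.34 in control arrays and at 12.71 to 13.14 (median 12.84) in Sar1B:H79G arrays. It rose by 1.49 ± 0.20 (log2 difference ± SE, 2 against 2 lines, limma adjusted p = 0.00581; 0.0645 without control line 2), and by 1.13 against the Sar1B lines (adjusted p = 0.0235). A second Sar1a probe set of similar brightness rose by 0.92 (adjusted p = 0.0206).

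Limma, with Benjamini-Hochberg adjustment over 31042 probe sets, called 6928 probe sets in Sar1B:H79G against control (22.3%), 4083 higher and 2845 lower. Over 14217 genes, each represented by its brightest probe set, 1906 were called higher (13.4%) and 1501 lower (10.6%), with a median difference of 0.02. These shares are the background for each list below. Where a line is left out below, the line that remains in its group is assumed to vary like the other lines. Of the 3407 called genes, 3128 had no overlap between the 5 control and the 8 Sar1B:H79G arrays. A rise of more than 1 on the log2 scale was called for 250 genes and a fall of that size for 195, and 22 rose and 15 fell by more than 2. Against the Sar1B lines, 697 genes were called higher (4.9%) and 1021 lower (7.18%), and in Sar1B against control 671 (4.72%) and 286 (2.01%). Calls were more common among bright probe sets, at 25.3% higher and 12.7% lower in the brightest of 4 equal bins of mean signal against 5.24% and 6.55% in the dimmest.

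The largest rise outside the COPII and lipid genes was that of Lcn2, a secreted protein that binds bacterial siderophores. Its signals were 7.95, 7.98, 8.34, 8.36 and 8.54 in the control arrays and 11.04 to 12.65 (median 11.78) in the Sar1B:H79G arrays. The mutant lines differed, with means of 12.45 and 11.15, but no mutant array reached the control range. The difference was 3.61 ± 0.43 (12.2-fold, adjusted p = 0.00427). Arhgef2, a guanine nucleotide exchange factor that couples microtubules to RhoA, followed with 8.50, 8.48, 8.31, 8.32 and 8.30 in control arrays against 11.26 to 11.69 (median 11.44). The spread within each group was small beside the difference, and the rise was 3.05 ± 0.15 (adjusted p = 0.000898). Cdr2, an onconeural antigen, and Tnfrsf26, a receptor of the tumour necrosis factor receptor family, rose by 2.36 ± 0.15 and 2.32 ± 0.10 (adjusted p = 0.00106 and 0.000898). Abcb1a, a multidrug efflux pump of the plasma membrane, rose by 2.50 ± 0.24 (adjusted p = 0.00251) from 8.56, 8.44, 8.21, 8.19 and 8.09 to between 10.69 and 10.97 (median 10.83). Plcd4, a phosphoinositide phospholipase C, and Zfand2a, an arsenite-inducible protein that associates with the proteasome, rose by 2.75 ± 0.34 and 2.42 ± 0.29 (adjusted p = 0.00476 and 0.00427; 0.0539 and 0.053 without control line 2). All of these were also called against the Sar1B lines, with differences of 3.82 for Lcn2, 2.70 for Arhgef2, 2.03 for Cdr2, 1.27 for Tnfrsf26, 1.68 for Abcb1a, 1.74 for Plcd4 and 2.02 for Zfand2a. In the line with native Sar1A, of the same array series, Zfand2a was at 11.49, between the groups. Lcn2, Arhgef2, Cdr2, Tnfrsf26, Abcb1a and Plcd4 were at 7.9, 8.96, 8.9, 8.53, 8.79 and 8.94 there.

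Among the 15 largest rises, 2 did not pass against the Sar1B lines. Akr1b1, the aldose reductase, was at 9.17, 9.14, 8.18, 8.13 and 8.63 in control arrays and 11.37 to 11.96 (median 11.68) in Sar1B:H79G arrays, a rise of 2.95 ± 0.27 (adjusted p = 0.00224). The Sar1B arrays lay at 10.74 to 11.26, and the difference from them was 0.60 (adjusted p = 0.288). A dimmer probe set of Akr1b1 differed by 0.13 (adjusted p = 0.175). Serpinf1, a secreted serpin with anti-angiogenic activity, rose by 2.67 ± 0.31 (adjusted p = 0.0038) from 9.30, 9.31, 8.43, 8.47 and 8.38 to between 11.37 and 11.70 (median 11.54). Its Sar1B arrays, at 11.40 to 12.16, overlapped those of the mutant, and the difference was −0.22 (adjusted p = 0.804).

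**Figure D1:**
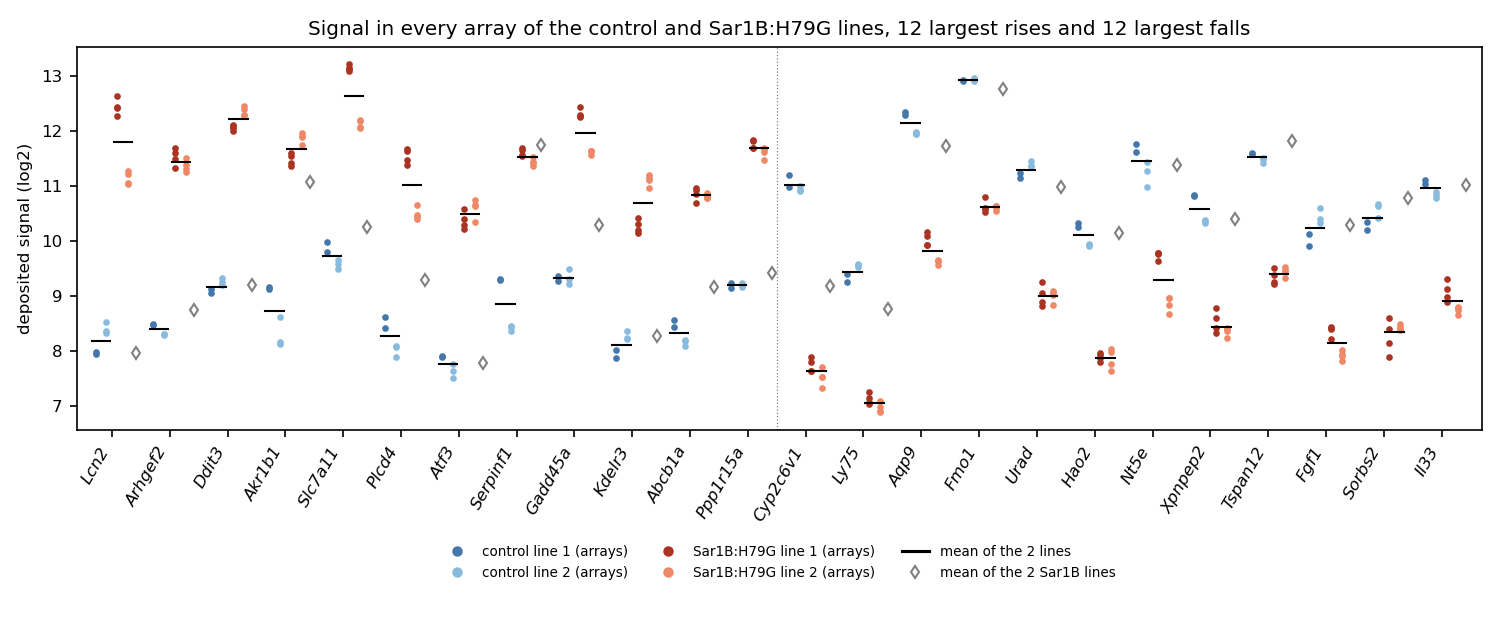
Deposited log2 signal (vertical axis) of the 12 largest rises (left of the dotted line) and 12 largest falls (right), with a point for each of the 5 control and 8 Sar1B:H79G arrays coloured by line, a bar for the mean of the 2 lines and a diamond for the mean of the 2 Sar1B lines. Control and mutant arrays do not overlap for any of these genes, and the Sar1B mean lies nearer to the mutant than to control for Serpinf1, Akr1b1 and Cyp2c6v1.

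The largest fall was that of Cyp2c6v1, a cytochrome P450 of the 2C family. It was at 10.91 to 11.20 (mean 11.02) in the 5 control arrays and at 7.34 to 7.90 (median 7.65) in Sar1B:H79G arrays. It fell by 3.38 on the log2 scale (SE 0.24, adjusted p = 0.00114), to signals below the array median. The Sar1B lines lay between the groups, at 8.60 to 9.83, and the 2C genes are similar enough in sequence that probes may read several of them. Fmo1, a flavin-containing monooxygenase, was at 12.91, 12.93, 12.92, 12.97 and 12.94 in control arrays and at 10.53 to 10.81 (median 10.60) in the mutant, and fell by 2.31 (SE 0.08, adjusted p = 0.000782). No mutant array came near the control range. Urad and Hao2, enzymes of uric acid breakdown and of peroxisomal hydroxyacid oxidation, fell (differences of −2.29 and −2.24, adjusted p = 0.000898 and 0.0033), and Aqp9, a channel for glycerol and water, fell by 2.31 (adjusted p = 0.00357). Fga, the fibrinogen alpha chain, was at 12.56, 12.39, 11.97, 11.88 and 12.03 in control arrays and at 9.95 to 10.67 (median 10.22) in Sar1B:H79G arrays, and fell by 1.94 (SE 0.21, adjusted p = 0.00327). Both groups stayed well apart from each other for each of these genes. In the line with native Sar1A, of the same array series as the mutant, Urad and Hao2 were at 9.28 and 8.75, nearer to the mutant than to control. Cyp2c6v1 lay between the groups there, at 9.81, and Fmo1, Aqp9 and Fga were near control, at 12.84, 11.63 and 11.99.

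The other large falls included receptors, enzymes and signalling proteins, given here one by one. Tspan12, a tetraspanin that takes part in Wnt receptor signalling, was at 11.60, 11.59, 11.51, 11.42 and 11.49 in control arrays and at 9.22 to 9.52 (median 9.42) in the mutant. The difference of −2.14 (SE 0.07, adjusted p = 0.000782) left the groups far apart. Nt5e, the ecto-nucleotidase that forms adenosine, fell by 2.16 (adjusted p = 0.00917; 0.0562 without control line 1 and 0.0594 without control line 2), and Xpnpep2, a membrane aminopeptidase, fell by 2.14 (adjusted p = 0.00124). Fgf1, an acidic fibroblast growth factor, fell by 2.08 (SE 0.19, adjusted p = 0.0023), Sorbs2, an adaptor of the actin cytoskeleton, fell by 2.08 (SE 0.12, adjusted p = 0.000928), and Car14, a membrane carbonic anhydrase, fell by 1.94 (SE 0.09, adjusted p = 0.000898). Il33, an interleukin of the nucleus that is released on cell damage, was at 11.12, 11.05, 10.90, 10.84 and 10.79 in control arrays and at 8.66 to 9.31 (median 8.85) in the mutant, a difference of −2.05 (SE 0.19, adjusted p = 0.00215). No array of the mutant came within the control range of Il33. Ly75, an endocytic lectin receptor, fell by 2.40 (SE 0.40, adjusted p = 0.0112; 0.0534 without control line 1 and 0.0953 without control line 2). Against the Sar1B lines, 13 of the 15 largest falls also passed. Ly75 missed with a difference of −1.71 (adjusted p = 0.0518), and Fabp7, a fatty acid binding protein of the nervous system, fell by 2.02 against control (adjusted p = 0.0302; 0.128, 0.123 and 0.0881 without control line 1, control line 2 and Sar1B:H79G line 2) and differed by 0.32 from Sar1B (adjusted p = 0.812).

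Genes were then grouped by 49 lists. Transcription factors and feedback genes of the integrated stress response rose together, with 12 of 17 measured members called higher and 1 lower (median 1.10). Ddit3, the pro-apoptotic factor CHOP, was at 9.12, 9.06, 9.25, 9.20 and 9.32 in control arrays and 12.01 to 12.45 (median 12.20) in Sar1B:H79G arrays, a rise of 3.04 ± 0.24 (adjusted p = 0.00151). Atf3 rose by 2.71 ± 0.20, Ppp1r15a, which directs dephosphorylation of eIF2, by 2.49 ± 0.12, Trib3, a pseudokinase that binds ATF4, by 2.10 ± 0.15 and Sesn2, a leucine sensor upstream of mTORC1, by 1.88 ± 0.07 (adjusted p = 0.00124, 0.000898, 0.00124 and 0.000898). Ppp1r15a was almost constant in control arrays, at 9.24, 9.15, 9.17, 9.20 and 9.24, and ran from 11.47 to 11.84 (median 11.69) in the mutant. Eif2ak4, the kinase that senses uncharged tRNA, was the member called lower, by 0.40 (adjusted p = 0.0242; 0.0596, 0.135 and 0.0945 without control line 1, control line 2 and Sar1B:H79G line 1), and was named after its value was seen. Atf5 and Stc2 differed by 0.72 and 0.21 and did not pass (adjusted p = 0.0836 and 0.0805). Against the Sar1B lines, 11 members were called higher and 1 lower (median 1.15), and Sar1B against control had 0 calls in either direction (median 0.07).

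Genes of amino acid supply were also called higher. Of 23 measured enzymes and carriers of amino acid synthesis and transport, 16 were called higher and 1 lower (median 0.69), and 8 were called higher without control line 2. Slc7a11, the cystine and glutamate exchanger, rose by 2.90 ± 0.37 (adjusted p = 0.00515; 0.061 without control line 2) from 9.98, 9.81, 9.58, 9.49 and 9.65 to between 12.06 and 13.21 (median 12.65). All 8 mutant arrays lay above all control arrays. In the line with native Sar1A, Slc7a11 was at 11.48, between the groups and nearer to the mutant. Cth, which makes cysteine from cystathionine, rose by 1.60 ± 0.14, the asparagine synthetase Asns by 1.38 ± 0.14, the proline enzyme Aldh18a1 by 1.36 ± 0.07 and the serine enzyme Psph by 1.21 ± 0.09 (adjusted p = 0.00177, 0.00269, 0.000898 and 0.00124). Gpt2 and Phgdh, at 0.47 and 0.41, did not pass (adjusted p = 0.0862 and 0.0798), and Shmt1, named after its value was seen, was called lower by 0.64 (adjusted p = 0.0231; 0.0953, 0.0736 and 0.0764 without control line 1, control line 2 and Sar1B:H79G line 2). Gpt2 had a dimmer probe set that was called, at 0.43 (adjusted p = 0.0332). Among 19 cytosolic aminoacyl-tRNA synthetases, 18 were called higher and 0 lower (median 1.08), and 11 without control line 2. Nars1 was at 11.34, 11.31, 11.14, 11.04 and 11.07 in control arrays and 12.79 to 12.96 (median 12.93) in the mutant, a rise of 1.70 ± 0.09 (adjusted p = 0.000898). Hars1, Sars1, Eprs1 and Tars1 rose by 1.45, 1.43, 1.41 and 1.19, and Farsa, at 0.02, was the member that did not pass (adjusted p = 0.841). Of the synthetases, 12 also passed against Sar1B (median 0.55). The side values were uneven among them, since Nars1, Hars1 and Aars1 were 0.88, 0.88 and 0.87 above control in the Sar1B lines, and Sars1 and Iars1 0.12 and 0.15.

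Promoters of these genes were searched for letters known to bind the factors named above. RefSeq promoters (build GRCr8, 250 bases before to 50 after the start) were matched by symbol for 11733 of the 14217 genes. The C/EBP-ATF response element, read here as TGATGCAA on either strand, lay in 72 of them (0.614%). It lay in 7 of 17 synthetase promoters, 3 of 20 of amino acid synthesis and transport, and 2 of 15 of the stress response factors. All 7 synthetases with the letters (Aars1, Cars1, Iars1, Mars1, Nars1, Tars1 and Yars1) were called higher, Mars1 with an adjusted p of 0.0163 (0.0899 and 0.0596 without control line 2 and Sar1B:H79G line 1). Since 18 of 19 synthetases were called, this does not set those with the letters apart. Of the 3 genes of amino acid supply with them, the neutral amino acid carrier Slc1a4 was called, at 0.60 (adjusted p = 0.0251; 0.088 and 0.139 without control lines 1 and 2), while Got1, an aspartate aminotransferase, and Slc38a1, a glutamine carrier, did not pass at 0.09 and −0.07 (adjusted p = 0.725 and 0.421). The stretches below show the match in capitals, reading 5′ to 3′ along the gene's strand and ending before the transcription start, and Trib3 is shown for the looser form TGATGNAA, which 259 promoters (2.21%) hold. A match on the other strand reads TTGCATCA.
Slc38a1, chr7:129681510-129681569, minus strand: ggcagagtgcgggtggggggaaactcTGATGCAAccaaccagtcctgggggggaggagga
Chac1, chr3:126795938-126795997, plus strand: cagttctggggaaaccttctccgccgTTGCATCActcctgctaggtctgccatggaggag
Nupr1, chr1:190645923-190645982, minus strand: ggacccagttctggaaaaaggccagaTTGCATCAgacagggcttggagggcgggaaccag
Trib3, chr3:161275534-161275580, minus strand: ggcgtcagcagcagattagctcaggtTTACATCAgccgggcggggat
Aars1, chr19:55908344-55908403, plus strand: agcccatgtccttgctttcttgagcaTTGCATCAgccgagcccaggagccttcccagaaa
Iars1, chr17:15193653-15193702, minus strand: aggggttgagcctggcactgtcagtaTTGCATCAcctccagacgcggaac
Tars1, chr2:62114803-62114855, minus strand: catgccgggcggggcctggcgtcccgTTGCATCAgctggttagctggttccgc
Nars1, chr18:60275783-60275822, minus strand: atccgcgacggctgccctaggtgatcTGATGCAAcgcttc
Herpud1, chr19:10614858-10614917, minus strand: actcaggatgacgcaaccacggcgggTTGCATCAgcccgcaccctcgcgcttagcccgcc
Ppp1r15a, chr1:105139629-105139688, minus strand: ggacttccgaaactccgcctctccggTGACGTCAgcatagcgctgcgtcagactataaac
The capitals in Ppp1r15a are the cyclic AMP response element TGACGTCA, found in 335 promoters (2.86%). Chac1, a glutathione-degrading enzyme, and Nupr1, a nuclear stress protein, were chosen for their matches and rose by 1.76 ± 0.10 and 1.47 ± 0.18 (adjusted p = 0.000928 and 0.0045). A match describes letters in a window and is not a shown binding site. Genes named here or below for a match were chosen for it.

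Over all genes, 23 of the 72 with TGATGCAA were called higher (31.9%) and 6 lower (8.33%), beside 13.8% and 10.8% of the 11733 with a promoter. Since the lists hold many of these genes, the 51 that lie in no list were counted apart, and 9 were called higher (17.6%) and 6 lower (11.8%). The smallest adjusted p among the 9 were those of Cox6a2, Jdp2 and Eif2s2, at 0.92, 0.85 and 0.80 (adjusted p = 0.00172, 0.00441 and 0.00639), named after their values were seen. The mean signals of Cox6a2 and Jdp2 over all arrays, 7.84 and 7.86, lay below the array median. Of the 259 genes with the looser TGATGNAA, 46 were called higher (17.8%) and 24 lower (9.27%). Of the 219 of these in no list, 27 were higher (12.3%) and 24 lower (11%). Of the 335 genes with TGACGTCA, 76 were called higher (22.7%) and 20 lower (5.97%), and of the 303 in no list 61 (20.1%) and 18 (5.94%). The members of a list share functions as well as letters, and no test was made of any of these sets.

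Folding in the ER lumen was described by a list of its own. Of 26 chaperones and folding enzymes, 11 were called higher and 0 lower (median 0.37), and 6 higher without control line 2. Selenos and Herpud1, parts of ER-associated degradation, rose by 1.61 ± 0.07 and 1.56 ± 0.12 (adjusted p = 0.000898 and 0.00146), the sensor Atf6 by 1.07 ± 0.07 and the cochaperone Dnajb9 by 1.05 ± 0.11 (adjusted p = 0.0011 and 0.00326). These are RNA values, and the study reported no change of ATF6 protein with Sar1B:H79G. Hspa5, the chaperone BiP, was at 12.89, 12.90, 12.65, 12.67 and 12.74 in control arrays and 13.65 to 14.03 (median 13.76) in the mutant, a rise of 1.00 ± 0.10 (adjusted p = 0.00308). Calr and Hsp90b1, lumenal chaperones of comparable abundance, differed by 0.07 and 0.36 and did not pass (adjusted p = 0.614 and 0.0946). The ER stress response element, which is CCAAT, 9 bases and CCACG, lay in 17 of the 11733 promoters (0.145%) and in 8 of 20 of this list. By the brightest probe set of each gene, Hspa5 was the one of these 8 that was called, and Calr, Canx, Creld2, Dnajc3, Ero1b, Hsp90b1 and Xbp1 differed by between −0.14 and 0.49. Dimmer probe sets of Canx were called in opposite directions, at −0.86 and 0.62 (adjusted p = 0.00484 and 0.0385). The element is shown for a gene that rose and for one that did not pass, whose promoter holds a second match.
Hspa5, chr3:38452953-38453011, plus strand: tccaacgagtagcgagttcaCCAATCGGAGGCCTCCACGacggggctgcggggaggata
Hsp90b1, chr7:23012431-23012489, minus strand: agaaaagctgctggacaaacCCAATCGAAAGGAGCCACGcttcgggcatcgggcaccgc
Zfand2a, described above, also holds the element and lies in no list.

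Retrieval to the ER and transport through the Golgi made up the next list. Of 36 cargo receptors, COPI coat subunits, SNAREs and other genes of Golgi transport and retrieval, COPII genes left out, 26 were called higher and 0 lower (median 1.04, 18 higher against Sar1B). Kdelr3, which retrieves escaped ER residents from the Golgi, was at 8.01, 7.87, 8.25, 8.23 and 8.37 in control arrays and 10.15 to 11.21 (median 10.70) in the mutant, a rise of 2.58 ± 0.28 (adjusted p = 0.00335). The GTPase Arf4 rose by 1.73 ± 0.11, the COPI subunit Copg1 by 1.66 ± 0.10 and the SNARE Sec22b by 1.47 ± 0.07 (adjusted p = 0.000993, 0.000928 and 0.000898). Tmed3, a p24 cargo receptor, rose by 1.85 ± 0.10 (adjusted p = 0.000898) but was at 8.76 to 9.10 in the Sar1B arrays and differed from them by 0.41 (adjusted p = 0.0637). Tmed10 and Copz1, at 0.37 and 0.24, did not pass (adjusted p = 0.0658 and 0.0569), although a second probe set of Copz1 was called at 0.69 (adjusted p = 0.0061). In the translocon and N-glycosylation list 14 of 26 were called higher and 1 lower (median 0.34; 4 higher without control line 2, 7 and 8 without Sar1B:H79G lines 1 and 2, 6 with quantile normalization and 8 with a trended, robust eBayes). Srpra, the receptor of the signal recognition particle, rose by 1.66 ± 0.10, Sec61a1, the channel subunit, by 1.17 ± 0.10 and Dad1, an oligosaccharyltransferase subunit, by 0.74 ± 0.07 (adjusted p = 0.000928, 0.00177 and 0.00251). The catalytic subunit Stt3b was the member called lower, by 0.64, and was named after its value was seen (adjusted p = 0.0235). Its call was lost without control line 1, control line 2 or Sar1B:H79G line 1, against the Sar1B lines and with the mean of its probe sets. A dimmer Stt3b probe set differed by −0.20 (adjusted p = 0.42).

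**Figure D2:**
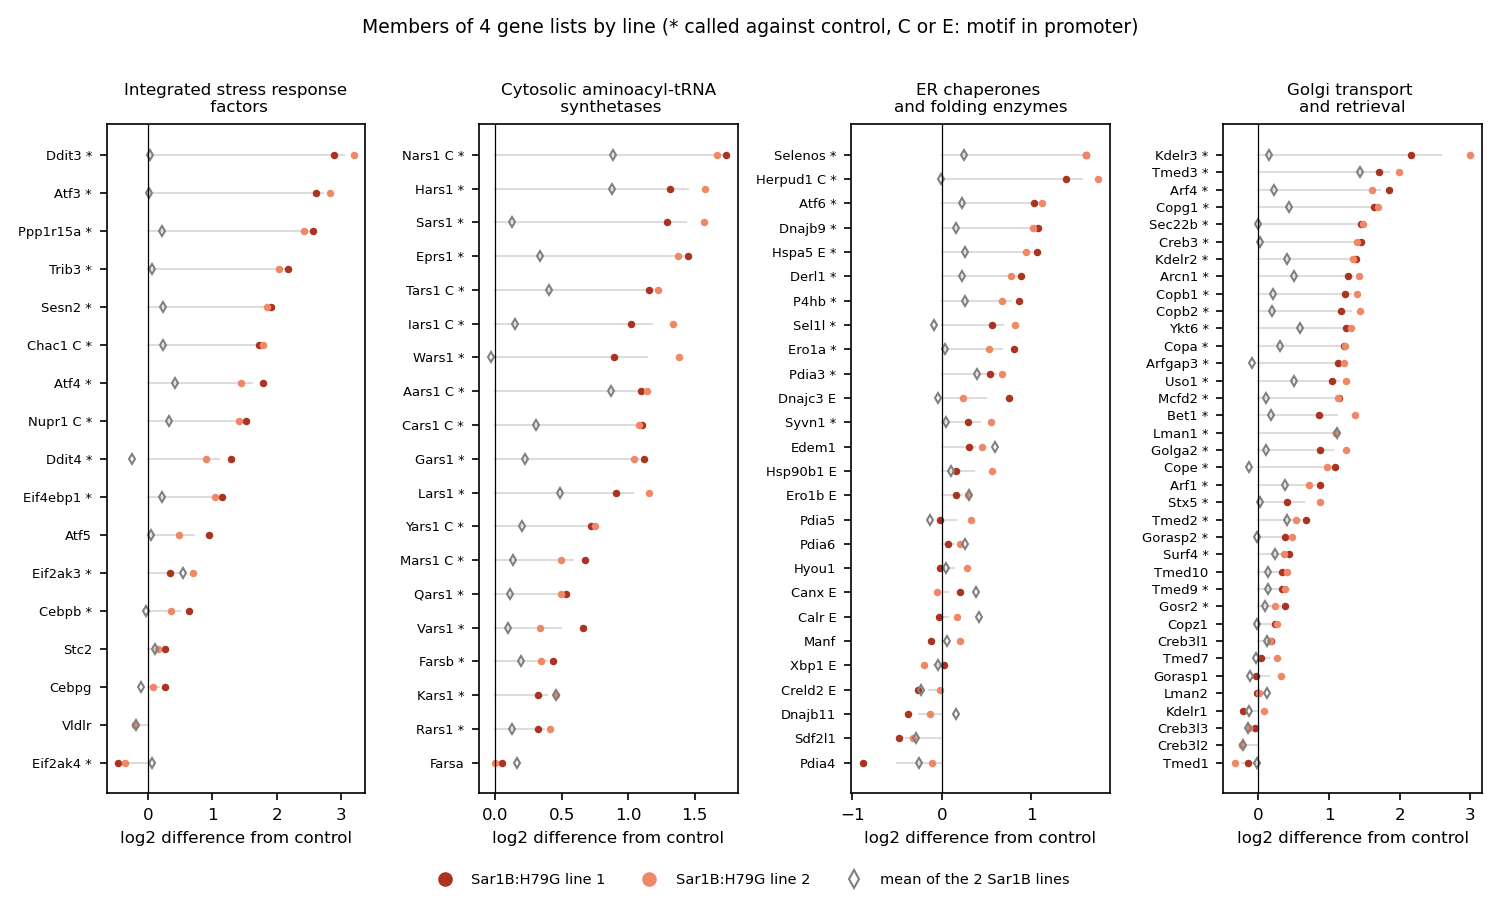
Log2 difference from the control mean (horizontal axis) for every measured member of 4 lists, with a filled point for each Sar1B:H79G line and a diamond for the mean of the 2 Sar1B lines. An asterisk marks members called against control, C a TGATGCAA match and E an ER stress response element, and Hspa5 alone among the E genes carries an asterisk.

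Stress genes of the cytosol and nucleus were mixed. Of 17 heat shock and cytosolic chaperone genes 9 were called higher and 0 lower (median 0.44), but 1 without control line 2, 4 with quantile normalization and 4 against the Sar1B lines. Hspb1, a small heat shock protein, was at 11.50, 11.52, 11.60, 11.51 and 11.61 in control arrays and 13.52 to 13.81 (median 13.61) in the mutant, and the groups were far apart. It rose by 2.08 ± 0.33 (adjusted p = 0.0101; 0.0575 and 0.0822 without control lines 1 and 2), and Hspb8 by 1.42 ± 0.21 (adjusted p = 0.00823; 0.0753 without control line 2). Hsf1, the heat shock factor, rose by 0.65 ± 0.09 (adjusted p = 0.00565), and Hsp90ab1 did not pass at 0.37 (adjusted p = 0.065), although a second probe set was called at 0.97. Among 22 targets of the oxidant-responsive factor NRF2, 4 were called higher, 1 lower and 17 not at all (median 0.33). Without control line 1, control line 2, Sar1B:H79G line 1 and Sar1B:H79G line 2 the count higher was 2, 0, 2 and 7. Against the Sar1B lines the list had 0 higher and 3 lower, with a median of −0.23. Srxn1, sulfiredoxin, rose by 1.29 ± 0.27 (adjusted p = 0.0234; 0.0971, 0.13 and 0.078 without control line 1, control line 2 and Sar1B:H79G line 1) and Gsta4 fell by 0.98 (adjusted p = 0.00142). Nfe2l2, which encodes NRF2, differed by −0.51 (adjusted p = 0.0553). Growth arrest genes were divided, with 5 of 16 higher and 2 lower (median 0.12, 2 higher without either control line). Gadd45a rose by 2.64 ± 0.23 (adjusted p = 0.00193) from 9.28, 9.37, 9.31, 9.50 and 9.23 to between 11.57 and 12.44 (median 11.95), with no overlap. The cyclin-dependent kinase inhibitor Cdkn1a rose by 0.81 ± 0.14 (adjusted p = 0.0132; 0.0517 and 0.102 without control lines 1 and 2), while Tp53inp2 and Sesn1 fell by 1.57 and 0.95 (adjusted p = 0.000928 and 0.00124). Dimmer probe sets of Tp53inp2 and Sesn1, at 0.17 and 0.03, did not pass. Of the dimmer Srxn1 probe sets 1 was called, at 2.04 (adjusted p = 0.00771), and 1, at 0.28, did not pass.

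Immediate early and feedback genes changed in both directions. Fosl1 and Jun, subunits of AP-1, rose by 2.06 ± 0.21 and 1.41 ± 0.10 (adjusted p = 0.00288 and 0.00108). Of 2 dimmer Jun probe sets 1 was called, at 1.40, and 1 did not pass, at 0.39 (adjusted p = 0.0792). Fosl1 was at 8.38, 8.71, 8.97, 8.90 and 8.83 in control arrays and 10.61 to 10.98 (median 10.76) in the mutant. Dusp6, the phosphatase that is induced by ERK and switches it off, fell by 1.17 (SE 0.26, adjusted p = 0.0257; 0.107, 0.074 and 0.0634 without control line 1, control line 2 and Sar1B:H79G line 2), and Egr1 differed by −0.73 (adjusted p = 0.0815). Of 24 genes of MAP kinase feedback and the immediate early response, 9 were called higher and 3 lower (median 0.22), and 3 higher without either control line or without Sar1B:H79G line 1 and 5 without Sar1B:H79G line 2. Growth factors and cytokines were close to background (4 higher and 4 lower of 32, median 0.01; 1 and 0 without control line 2, 2 and 2 without control line 1), and the members called higher included Inhbe, the inhibin beta E subunit, at 1.25 ± 0.08 (adjusted p = 0.00108), and Areg, an EGF receptor ligand, at 1.19 ± 0.17 (adjusted p = 0.00757; 0.0721 without control line 2). The mean Areg signal over all arrays, 7.36, lay below the array median. In the apoptosis list 5 of 23 were higher and 4 lower (median 0.04; 2 and 1 without control line 2, 1 lower without control line 1). Casp12, a caspase associated with the ER in rodents, was at 8.55, 8.61, 8.45, 8.35 and 8.46 in control arrays and 10.01 to 10.66 (median 10.29) in the mutant. It rose by 1.81 ± 0.14 and its neighbour in family, Casp4, by 1.72 ± 0.11 (adjusted p = 0.00147 and 0.00108). Tnfsf10, the death ligand TRAIL, fell by 1.39 (SE 0.14, adjusted p = 0.00298) from signals already below the array median, and Bid fell by 0.50 (adjusted p = 0.0211). The call of Bid was lost without control line 1, control line 2 or Sar1B:H79G line 2, and with the mean of its probe sets. A dimmer Bid probe set differed by 0.02 (adjusted p = 0.943).

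Liver-enriched transcription factors were called lower more often than higher. Of 21 measured, 11 were lower, 1 higher and 9 not called (median −0.24). The count lower was 7 when each gene's probe sets were averaged, 4 without control line 2, 6 without control line 1 and 7 without Sar1B:H79G line 2. Hnf4a, the nuclear receptor that maintains hepatocyte identity, was at 10.82, 10.70, 10.72, 10.69 and 10.59 in control arrays and 9.69 to 10.11 (median 9.97) in the mutant. The ranges were apart, and the fall was 0.78 (SE 0.07, adjusted p = 0.00255), although 2 dimmer probe sets of Hnf4a differed by 0.26 and 0.05 and did not pass. Cebpa fell by 1.32 (SE 0.24, adjusted p = 0.0152; 0.0781 and 0.0792 without control lines 1 and 2), Prox1, a homeobox factor of the liver bud, fell by 1.28 (adjusted p = 0.0074; 0.0671 without control line 2) and Nr5a2 by 0.88 (adjusted p = 0.00433). Of 4 dimmer Cebpa probe sets 3 were called lower and 1, at −0.17, did not pass, and the dimmer probe sets of Prox1 (0.06) and Nr5a2 (−0.37 and 0.12) did not pass. Nr3c1, the glucocorticoid receptor, fell by 0.78 (adjusted p = 0.00527; 0.0509 without control line 2), with a dimmer probe set higher by 0.54 (adjusted p = 0.0192). Foxa3, the member called higher and named after its value was seen, rose by 0.69 (adjusted p = 0.00983; 0.0807 without control line 2) and differed by −0.04 from Sar1B. Against the Sar1B lines 7 of the list were lower and 0 higher (median −0.22). Of 15 glucocorticoid targets 8 were higher and 2 lower (median 0.40; 2 higher without either control line and 4 without Sar1B:H79G line 1), and Errfi1, an inhibitor of the EGF receptor, rose by 0.99 ± 0.09 (adjusted p = 0.00243).

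Secreted liver products were counted in 4 lists. Of 24 plasma and fetal liver proteins, 2 were called higher and 4 lower (median −0.11; 2 lower without control line 2 or Sar1B:H79G line 2), beside 13.4% and 10.6% of all genes. Igfbp4, a binding protein of insulin-like growth factors, fell by 1.39 (SE 0.12, adjusted p = 0.00205), Serpina1, the alpha-1 antitrypsin, by 0.64 (adjusted p = 0.035; 0.133, 0.0809 and 0.107 without control line 1, control line 2 and Sar1B:H79G line 2), and Ttr differed by −0.51 (adjusted p = 0.0765). Alb was at 12.20 and 12.10 in the arrays of control line 1 and 10.70, 10.62 and 10.66 in those of line 2, so that the control lines lay further apart than the means of the groups. Its Sar1B:H79G arrays lay at 10.79 to 11.07 and the difference of −0.43 did not pass (adjusted p = 0.504; 0.035 without control line 2). Coagulation genes (1 higher and 4 lower of 22, median −0.13), acute-phase proteins (1 and 4 of 18, median 0.00) and complement (0 and 4 of 19, median −0.22) made up the other lists. For coagulation and acute-phase proteins the count lower was 2 without control line 1, control line 2 or Sar1B:H79G line 2. C9 fell by 1.24 and Mbl2, a lectin of complement, by 0.86 (adjusted p = 0.00184 and 0.00335), and Stat3, the factor that carries the acute-phase signal of IL-6, by 0.78 (adjusted p = 0.00589), with a second probe set of Stat3 higher by 0.57 (adjusted p = 0.00933). Serpina3n fell by 1.31 (adjusted p = 0.00694) but differed by −0.09 from the Sar1B lines (adjusted p = 0.875). Its mean signal over all arrays, 7.55, lay below the array median. Among enzymes of drug metabolism, 6 of 19 cytochrome P450 and FMO genes and 6 of 23 conjugating enzymes were lower and 0 higher (median −0.24 each; without control line 2, 3 of the 19 and 3 of the 23, and 2 of the 23 without control line 1). Sult1b1, a sulfotransferase, was at 11.54, 11.37, 11.27, 11.16 and 11.28 in control arrays and 9.44 to 9.75 (median 9.59) in the mutant, a fall of 1.76 (SE 0.10, adjusted p = 0.000898).

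Amino acid breakdown and the urea cycle were split within the pathway. Of 25 genes, 4 were higher and 7 lower (median −0.06; 1 higher and 4 lower without control line 2, 2 higher without control line 1). Kmo, of the kynurenine pathway, was at 10.85, 10.71, 10.64, 10.60 and 10.63 in control arrays and 8.61 to 9.22 (median 8.97) in the mutant, and fell by 1.75 (SE 0.11, adjusted p = 0.00099). Fah, of tyrosine breakdown, fell by 1.47 and Arg1, which splits arginine into urea and ornithine, by 1.51 (adjusted p = 0.00305 and 0.00209). Ass1, which condenses citrulline and aspartate, rose by 1.47 ± 0.28 (adjusted p = 0.0169; 0.072 and 0.119 without control lines 1 and 2) from 7.49, 7.48, 7.40, 7.39 and 7.39 to between 8.37 and 9.42 (median 8.95). Otc, the enzyme before it in the cycle, differed by −0.49 (adjusted p = 0.121). In glucose metabolism, Pck2, the mitochondrial phosphoenolpyruvate carboxykinase, rose by 1.88 ± 0.24 (adjusted p = 0.00511; 0.0598 without control line 2) and Pklr, the liver pyruvate kinase, fell by 1.22 (SE 0.13, adjusted p = 0.0033). Of 24 glycolytic and hypoxia-inducible genes 8 were higher and 4 lower (median 0.04; 1 higher without control line 2, 4 without control line 1 or Sar1B:H79G line 1), among them the glucose transporter Slc2a1 at 0.91 ± 0.08 (adjusted p = 0.00176), and of 13 genes of gluconeogenesis and glycogen 2 were higher and 2 lower (median −0.08).

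Targets of BMP and Wnt signalling were among the genes that fell. Id3 and Id1, inhibitors of helix-loop-helix factors that are raised by BMP, fell, with differences of −1.69 (SE 0.09) and −1.58 (SE 0.35, adjusted p = 0.000898 and 0.027; Id1 0.0963 and 0.153 without control lines 1 and 2). Id3 was at 10.56, 10.48, 10.52, 10.64 and 10.44 in control arrays and 8.69 to 9.06 (median 8.81) in the mutant. The Sar1B arrays of Id3, at 10.25 to 10.64, overlapped the control arrays and reached below them. The difference of the mutant from Sar1B was −1.69 (adjusted p = 0.0017). Id2 was at 11.27, 11.03, 10.42, 10.46 and 10.87 in control arrays, overlapping the mutant range of 9.73 to 10.47, and its fall of 0.84 passed (adjusted p = 0.0258; 0.0516 and 0.0826 without Sar1B:H79G lines 1 and 2). Its Sar1B arrays lay above both groups, at 12.24 to 12.56. Of 26 genes of TGF-beta, BMP and Hippo signalling 4 were higher and 9 lower (median −0.05; 1 higher and 3 lower without control line 2, 2 and 5 without Sar1B:H79G line 2), and 1 and 9 against Sar1B. The receptor Bmpr2 rose by 0.87 ± 0.08 (adjusted p = 0.00234) but lay 0.44 below the Sar1B lines (a difference of −0.44, adjusted p = 0.0273). A dimmer Bmpr2 probe set, at 0.06, did not pass against control.

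In the Wnt and Notch list 9 of 26 were lower and 0 higher (median −0.17; 5 and 6 lower without control lines 2 and 1), and 6 and 0 against Sar1B. Znrf3, a ubiquitin ligase that removes Wnt receptors and is itself a Wnt target, was at 10.01, 9.72, 9.92, 9.86 and 9.98 in control arrays and 7.91 to 8.62 (median 8.17) in the mutant. It fell by 1.69 (SE 0.17, adjusted p = 0.00288), and Lgr5, the R-spondin receptor, by 1.13 (SE 0.08, adjusted p = 0.00108). The groups were apart for both. Tcf7l2, a factor that binds beta-catenin, fell by 0.78 (adjusted p = 0.00233), Glul, the glutamine synthetase of pericentral hepatocytes, by 0.90 (adjusted p = 0.0146) and Wnt4 by 1.17 (adjusted p = 0.00177, with −0.09 against Sar1B, adjusted p = 0.723). The mean Wnt4 signal over all arrays, 7.37, lay below the array median. Axin2, another Wnt target, differed by −0.61 with overlapping arrays (adjusted p = 0.101). The axon guidance and neural list had 7 of 29 genes lower, 2 higher and the rest not called (median 0.01; 4 lower without Sar1B:H79G line 2). Nrp1 was at 10.52, 10.05, 10.38, 10.51 and 10.40 in control arrays and 8.29 to 8.90 (median 8.64) in the mutant, and fell by 1.74 (SE 0.20, adjusted p = 0.00385). Its paralog Nrp2 fell by 1.69 (SE 0.16), Dpysl2, which carries semaphorin signals to microtubules, fell by 1.32 and Ephb4 by 1.01 (adjusted p = 0.00253, 0.00609 and 0.00186), and the netrin receptor Unc5b rose by 1.10 ± 0.15 (adjusted p = 0.00655). A dimmer Nrp2 probe set differed by 0.08 and did not pass, nor did 4 dimmer Tcf7l2 probe sets, at −0.27 to −0.06. Of the other Glul probe sets 1 was called, at −1.45, and 1 did not pass, at −0.56.

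**Figure D3:**
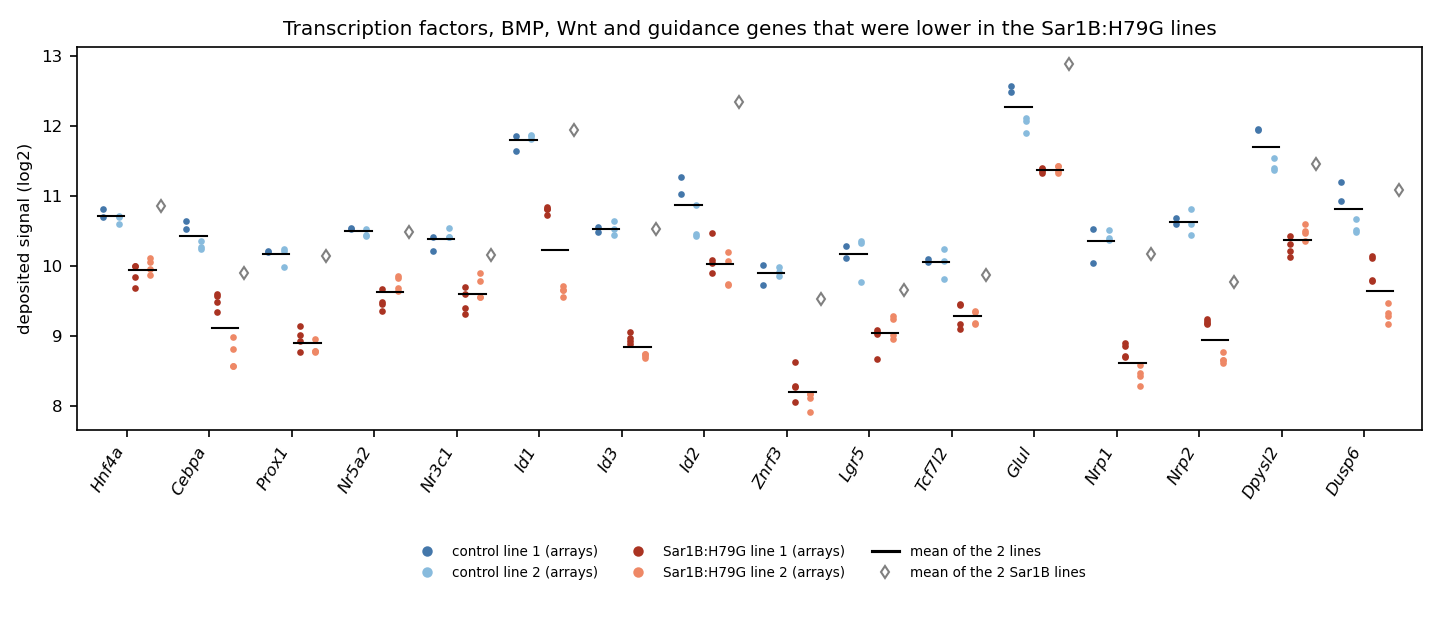
Deposited log2 signal (vertical axis) in each control and Sar1B:H79G array for 16 genes of hepatocyte transcription, BMP, Wnt, guidance and MAP kinase feedback, coloured by line, with bars at the mean of 2 lines and diamonds at the mean of the 2 Sar1B lines. Id2 is the gene whose groups overlap, and its Sar1B mean lies above both groups.

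In a further set of lists, fewer members were called against the Sar1B lines than against control. Calls higher also fell over all genes, from 13.4% against control to 4.9% against Sar1B, and the difference in counts was not tested for any list. Cytosolic ribosomal proteins had 8 of 17 called higher and 0 lower against control (median 0.40; 1 higher with quantile normalization) and 0 of 17 against Sar1B (median 0.12), while Sar1B against control had 0 calls with a median of 0.33. Rpl4 was at 13.58, 13.58, 13.16, 13.22 and 13.19 in control arrays, 13.94 to 14.39 (median 14.06) in the mutant and 13.77 to 14.03 in Sar1B arrays. Mutant and Sar1B arrays overlapped, and the rise against control was 0.71 ± 0.15 (adjusted p = 0.0218; 0.0957 without control line 2 and 0.076 without Sar1B:H79G line 1). Without control line 2 and without Sar1B:H79G line 1 the list had 0 calls. Nuclear import had 9 of 23 higher and 1 lower against control (median 0.26; 5 and 1 higher without control lines 1 and 2) and 1 and 1 against Sar1B, with Kpna1, an importin alpha, at 1.21 ± 0.13 against control (adjusted p = 0.00326) and 0.36 against Sar1B. Cytoskeletal genes had 9 of 30 higher (median 0.18; 4, 0, 1 and 4 without control line 1, control line 2, Sar1B:H79G line 1 and Sar1B:H79G line 2) and 0 against Sar1B. The proteasome had 11 of 24 higher (median 0.35; 3 without control line 2 and 4 with quantile normalization) and 4 against Sar1B, beside 4.9% of all genes, led by Psmd4, a ubiquitin receptor of the lid and base, at 0.93 ± 0.06 (adjusted p = 0.00108) and 0.30 against Sar1B (adjusted p = 0.0382). Psma6 did not pass against control, at 0.48 (adjusted p = 0.134). Of 2 dimmer Kpna1 probe sets 1 was called against control, at 0.46, and 1 did not pass, at 0.15.

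Some matrix genes were also near the Sar1B level. Col5a2, a fibrillar collagen chain, was at 11.36, 11.40, 10.63, 10.61 and 10.56 in control arrays and 13.14 to 13.42 (median 13.27) in the mutant, a rise of 2.29 ± 0.24 (adjusted p = 0.00308). Its Sar1B arrays lay between, at 12.47 to 12.67, and the difference from them was 0.68 (adjusted p = 0.16). Mmp14, a membrane collagenase, rose by 1.78 ± 0.32 (adjusted p = 0.0137) from 10.19, 10.07, 9.10, 9.08 and 9.10 to between 11.18 and 11.69 (median 11.40) and was at 11.75 to 12.05 in the Sar1B arrays. All mutant arrays of Mmp14 thus lay above control and below Sar1B, with a difference of −0.52 from Sar1B (adjusted p = 0.461). Of 34 matrix genes 7 were higher and 0 lower (median 0.00; 2 higher without either control line, 3 and 4 without Sar1B:H79G lines 1 and 2), and 1 and 3 against Sar1B. Anxa1, an annexin that did not pass against control (−0.37, adjusted p = 0.365), was at 10.56 to 11.44 in Sar1B arrays against 8.09 to 8.78 in the mutant. The line with native Sar1A, in the same array series, had Serpinf1 at 9.53, beside 9.30 and 8.42 in the control lines. Its Fabp7 signal was 13.2, beside 13.6 and 13.1 in the control lines. Akr1b1 was at 11.05 in it, beside 11.14 and 11.02 in the Sar1B lines. Whether the values that the mutant shares with Sar1B go with the array series, with Sar1 expression or with the clone was not tested.

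**Figure D4:**
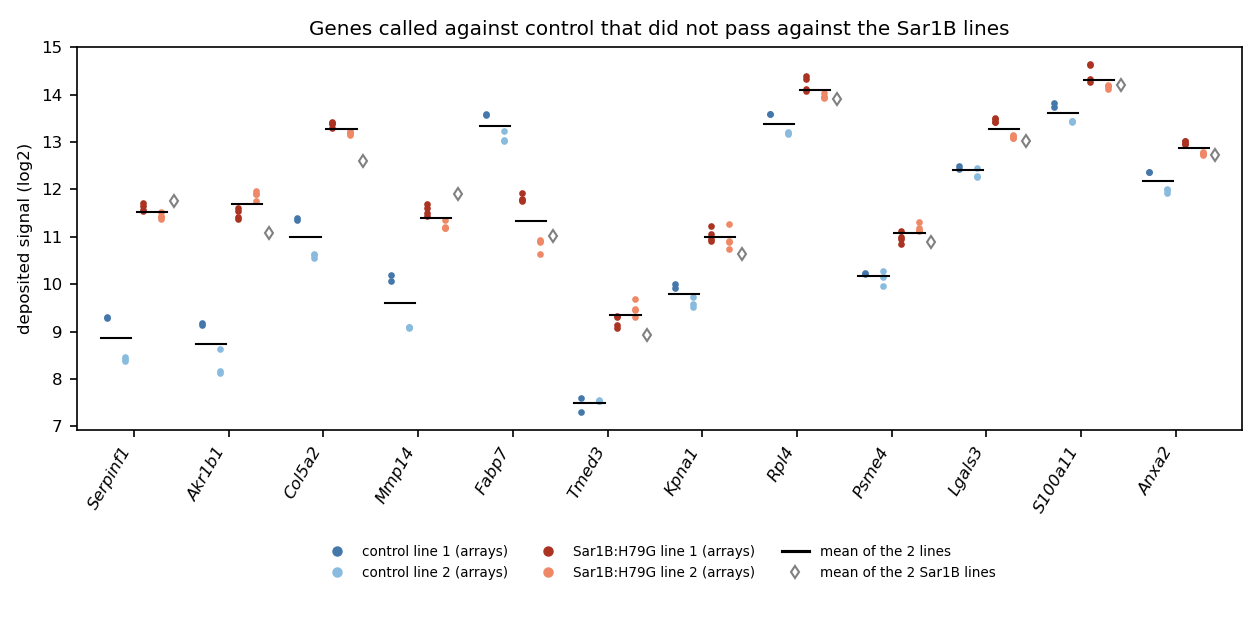
Deposited log2 signal (vertical axis) in each control and Sar1B:H79G array for 12 genes called against control that did not pass against the Sar1B lines, with bars at group means and diamonds at the mean of the 2 Sar1B lines. The diamond lies beside or beyond the mutant for Serpinf1, Mmp14 and Fabp7, and between the groups for Col5a2.

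The remaining lists are given by their counts, which changed when a line was left out. Without control line 2 the calls higher were 0 for the respiratory chain, RNA splicing, metal handling, adhesion, insulin and mTOR, cell cycle, DNA replication and interferon lists. They were 1 each for nucleotide synthesis, tubulins, lysosome, chromatin and NF-kB, 2 for the clock and 3 for Rab GTPases. The calls lower were then 0 for bile transporters, NF-kB, splicing and replication, 1 each for cell cycle, adhesion, metal handling, the clock and interferon, 2 each for ion channels and lysosome, 3 for insulin and mTOR and 4 for chromatin. Without Sar1B:H79G line 2, 7 cell cycle genes were lower. Ribosome biogenesis had 8 of 19 higher and 0 lower (median 0.34; 3 and 2 without control lines 1 and 2, 5 without Sar1B:H79G line 1). Cell cycle genes had 1 of 29 higher and 4 lower (median −0.04), and DNA replication 1 and 1 of 22 (median 0.06). The respiratory chain had 4 and 1 of 22 (median 0.13), RNA splicing 4 and 1 of 24 (median 0.18), and nucleotide and polyamine synthesis 7 and 2 of 25 (median 0.20). Rab GTPases had 7 and 1 of 28 (median 0.13), tubulins and motors 4 and 0 of 17 (median 0.05), and lysosome and autophagy genes 4 and 6 of 28 (median 0.01). Metal handling had 5 and 3 of 21 (median 0.17), the circadian clock 4 and 2 of 17 (median −0.03), and histones and chromatin 4 and 6 of 23 (median −0.10). Integrins and adhesion had 5 and 4 of 30 (median −0.04), ion channels 1 and 7 of 28 (median −0.08), and bile and solute transporters 1 and 3 of 25 (median −0.18). Insulin and mTOR signalling had 3 and 6 of 26 (median −0.05), interferon and antigen presentation 1 and 2 of 23 (median −0.02), and NF-kB signalling 3 and 2 of 19 (median 0.04).

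**Figure D5:**
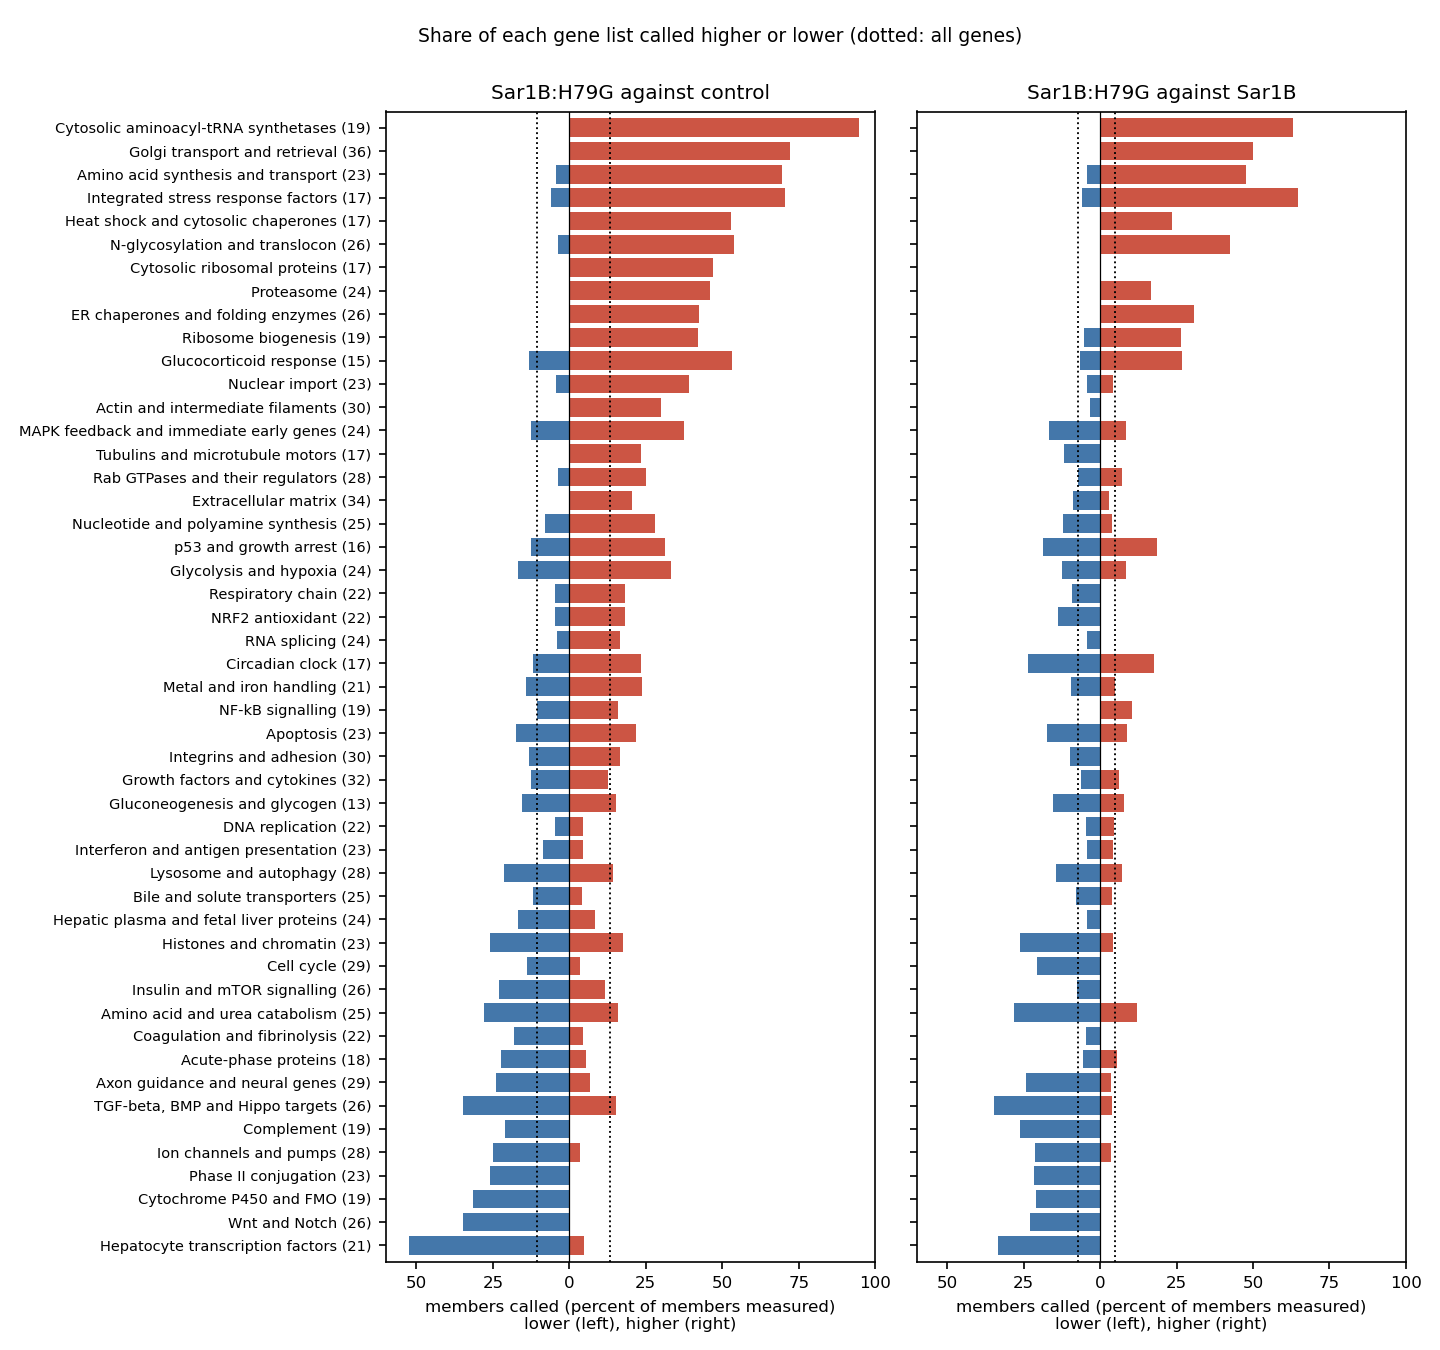
Share of the measured members (number in brackets) of 49 gene lists called higher (right, red) or lower (left, blue), in percent, against control (left panel) and against the Sar1B lines (right panel). Dotted lines mark the shares over all genes, 13.4% and 10.6% against control and 4.9% and 7.18% against Sar1B, and the bars of ribosomal proteins and cytoskeletal genes to the right vanish in the right panel.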

How the data were processed

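RNA of 7 stable lines was hybridised to Affymetrix whole-genome rat arrays (25 arrays). Per the labels and methods, the authors summarised probe sets with MAS5 and normalised them by loess in CARMAweb (versions not given in the sources used here), and deposited log2 values, whose base was inferred from their range. The values were used as deposited. Loess centres arrays on each other, so a shift of most genes would be removed. Signals carry no counts, and the number of arrays and lines limits precision.

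From these values, 57 array control probe sets were left out and arrays were averaged per line. A model with a coefficient per group was fitted to the 7 line means with limma 3.58.1 (R 4.3.3, statmod 1.5.0), with moderated two-sided tests and Benjamini-Hochberg adjustment over 31042 probe sets, called under 0.05 (3 residual and 3.16 prior degrees of freedom). Gene symbols came from the platform annotation: 20826 probe sets had 1 symbol, 436 several and 9780 none, and the brightest probe set stood for each gene. On simulated data for Sar1B:H79G against control (31042 probe sets), 34%, 76%, 92% and 98% of 50 probe sets changed by 0.5, 1, 1.5 and 2 log2 units were recovered, and 10 unchanged ones were called. The simulation changed far fewer probe sets than were called in the data and held no shift between array series. It therefore cannot gauge calls that go with the series.

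Named were the 15 largest rises and 15 largest falls among called genes without array overlap and with the higher group mean above the median of all probe sets, then up to 5 called members and up to 2 that did not pass from each list described, and Sar1a and Sar1b. COPII and lipid genes were left out of the first set. In some lists the called members named were not those with the largest change. The members and lists were chosen with earlier results of these data known. Lists carry no test. Alternatives changed the replicate unit, normalization, filter, model, threshold and reference lines, or left out each line. Line numbers were checked as a pairing and only name lines.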

Additional observations from a re-analysis of the deposited data

Results flagged for a closer look

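Within a group of 5 control or 8 Sar1B:H79G arrays, a single array stood apart from the others for 15 of the named genes, of 302 groups of arrays looked at. For independent arrays of the same distribution, chance alone marks about 1 in 20. The arrays of a group come from different lines, so the rate for them is not known. In the control arrays, line 1 array 1 was high for Car14 (11.9, others 11.54 to 11.63) and Hsf1 (10.21, others 9.91 to 9.97) and low for Tmed3 (7.3, others 7.52 to 7.6). Control line 1 array 2 was low for Id1 (11.64, others 11.82 to 11.87) and Eif2ak4 (8.73, others 8.93 to 8.96). Control line 2 array 1 was low for Gpt2 (9.64, others 9.73 to 9.77), array 2 high for Psmd4 (11.91, others 11.87 to 11.88) and array 3 low for Sesn1 (8.81, others 8.96 to 9.02) and Prox1 (9.98, others 10.2 to 10.24).

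In the Sar1B:H79G arrays, line 1 array 2 was high for Fmo1 (10.81, others 10.53 to 10.64), Cars1 (11.41, others 11.27 to 11.34) and Slc2a1 (11.12, others 10.79 to 10.92). Line 1 array 4 was high for Stc2 (8.26, others 7.94 to 8.09) and low for Cox6a2 (8.14, others 8.38 to 8.54), and line 1 array 3 was high for Jdp2 (8.6, others 8.16 to 8.34). Arrays of a line are technical replicates, and each value enters the tests through the mean of its line.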

How the results depend on the processing

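The numbers of probe sets called higher and lower, 4083 and 2845, rested on the choice of replicate and on the lines. With each array as a replicate they were 9347 and 6894, and when lines were treated as a random block 6875 and 4930. At an adjusted p under 0.01 they were 1285 and 810, and with the Sar1B lines in place of the control lines 1037 and 1643. With probe sets above the median alone, 1813 were lower. Leaving out 1 line gave 981 to 3392 higher and 732 to 2481 lower, the fewest without control line 2 (981 and 732). They were 2472 and 1874 without control line 1, 2736 and 1487 without Sar1B:H79G line 1, and 2614 and 1870 without Sar1B:H79G line 2. Quantile normalization gave 3666 and 3608. It also gave 4 genes higher for ribosome biogenesis, 4 for cytoskeletal genes, 5 for glycolysis and 0 each for the respiratory chain and RNA splicing, and 10 lower for conjugating enzymes and 7 for coagulation. Line number as a replicate block gave 4089 and 2928, with 15 ribosomal proteins and 8 NRF2 targets higher. The numbers mark lines and pair nothing by design, and the deviations of equally numbered control and Sar1B:H79G lines correlated at 0.192. Of 151 named genes 125 were called, and 96 of these kept the call without each control and Sar1B:H79G line, with 16, 28, 6 and 6 lost without control line 1, control line 2, Sar1B:H79G line 1 and Sar1B:H79G line 2. Against the Sar1B lines the sign turned for Serpinf1 (−0.22), Fabp7 (0.32), Foxa3 (−0.04), Bmpr2 (−0.44) and Mmp14 (−0.52). The cause was not tested. Without detection calls, falls to signals near or below the array median may be understated.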
